A study of Mus musculus with 9 samples.

Results

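The collagen genes were followed across enteric glia of the mouse small intestine, cultured with or without lipopolysaccharide (LPS) or taken straight from the tissue. They were chosen by name, as every probe of the array whose gene symbol is Col, a type number, a and a chain number, which gave 59 probes of 37 genes and 24 collagen types among 23977 probes of 16592 genes with a symbol. By the structures they build, 17 probes of 11 genes belong to the fibrillar collagens, 15 probes of 9 genes to the collagens of basement membranes and 27 probes of 17 genes to other types. All cells came from FVB mice carrying hGFAP-eGFP, a transgene that places eGFP, a green fluorescent protein, under the promoter of human GFAP, at postnatal day 7. The longitudinal muscle with the myenteric plexus was digested and green cells were collected by flow cytometry, with 1 pooled litter for each replicate. LPS gliospheres (3 arrays) were free-floating spheres grown from the sorted cells with epidermal and basic fibroblast growth factor under low oxygen and then kept with 100 µg/ml LPS for 48 h. Untreated gliospheres (3 arrays) were the other well of the same preparations, without LPS. GFAP-glia in vivo (3 arrays) were sorted directly into lysis buffer, without culture. The sort selects on the transgene and not on GFAP itself, and the dishes on which the cells first grew were coated with fibronectin and laminin.

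Collagens are secreted proteins whose chains wind around each other into a helix. The fibrillar types (I, II, III, V, XI, XXIV and XXVII) are trimmed outside the cell and pack into fibrils, type IV chains join into the sheet of the basement membrane, and type VI forms beaded filaments between membrane and fibrils. Fibril-associated types decorate the fibrils, and transmembrane types stay in the cell surface. Glia of peripheral nerves are covered by a basement membrane that they help to make, whereas enteric glia sit tightly packed inside ganglia whose collagen lies mostly around the outside.

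Median signals spanned 145.2 to 195.6 (LPS), 193.5 to 215.5 (untreated) and 123.8 to 164.5 (in vivo), and 46.6 to 50.1% of the probes were above background (a detection p-value of 0.05 or less) on each array. Gfap was above background on 3 of 3 LPS arrays, 3 of 3 untreated arrays and 0 of 3 in vivo arrays, so that the marker which gave the in vivo cells their name did not reach a measurable level there, and it was at least 13.4-fold higher in LPS gliospheres (adjusted p = 6.81e-05) and at least 9.69-fold higher in untreated gliospheres (adjusted p = 0.000163) than in vivo by limma's test over all probes. Of the other 4 glial markers on the array the ectonucleotidase gene Entpd2 was above background on all 9 arrays, S100b on 2 LPS, 3 untreated and 2 in vivo arrays and Foxd3 on none, while Fabp7, above background on 2 in vivo arrays only, was lower in both gliosphere groups (adjusted p = 0.00487 with LPS and 0.0168 without). Of 5 smooth muscle markers tested, 4 were lower in LPS gliospheres than in vivo (13.5% of all probes tested were) and 3 in untreated gliospheres (11.9% of all). Of the 5, 0 were higher in either, and Tagln did not pass (adjusted p = 0.908 and 0.759). Myh11 and Des, of the contractile apparatus, were above background on no gliosphere array and on 3 of 3 in vivo arrays. Acta2 was above it on all 9 arrays, and for untreated gliospheres it did not pass (adjusted p = 0.0708). Actg2 was above it on 3 LPS, 2 untreated and 3 in vivo arrays. The summed normalized signal (linear scale, 1 probe a gene) of 6 smooth muscle markers was 2280 to 3276 for LPS, 3599 to 6827 for untreated and 9687 to 27065 for in vivo arrays. Of these 6 Cnn1 was not above background on any array. For 4 markers of macrophages and leukocytes the sums were 225.2 to 624.0, 166.2 to 406.3 and 1039 to 1421 in the same order of groups, with Ptprc below background on every array. Of these, Adgre1 was lower in LPS gliospheres (log2 fold change -3.92, adjusted p = 0.00131) and untreated gliospheres (-2.94, adjusted p = 0.00693) than in vivo, Lyz2 was higher in LPS gliospheres (3.71, adjusted p = 0.0095), above background on 1 of 3 in vivo arrays, and Aif1 did not pass (adjusted p = 0.27 and 0.138). Of 5 endothelial markers the defining genes Cdh5, Kdr and Emcn were below background on every array. Pecam1 was above background on 1 LPS, 1 untreated and 3 in vivo arrays (adjusted p = 0.366 and 0.0606) and Tek on 2, 1 and 2, and neither passed. The neuron markers Elavl4, Uchl1 and Ret were above background on all 9 arrays. Of 4 neuron markers tested Uchl1 was lower than in vivo in LPS gliospheres (log2 fold change -1.48, adjusted p = 0.00174) and untreated gliospheres (-1.47, adjusted p = 0.00215), and 3 did not pass. Of 2 epithelial markers tested 1 was lower in LPS gliospheres and 0 in untreated gliospheres. The part of these cells in the collagen differences was not tested, and in such bulk samples fewer cells of a type and less RNA per cell cannot be told apart.

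Collagen probes above background numbered 23 to 26 on each LPS array, 25 to 27 on each untreated array and 24 to 27 on each in vivo array. Of the 59 probes, 38 probes of 30 genes were above background on at least 1 of the 9 arrays and were tested, and 15 of these were above it on all 9. The other 21 probes were below background everywhere. Col11a1 and Col10a1, which mark cartilage, Col4a3, a chain of the kidney and lung basement membrane, Col6a6, Col9a3, Col13a1 and Col19a1 had no probe above background, which bounds their signal but does not show that they are silent. With the stricter detection p-value of 0.01 the probes below background on every array numbered 30. A further type VI chain, Col6a3, was not among the probes and was not analysed here.

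**Figure D1:**
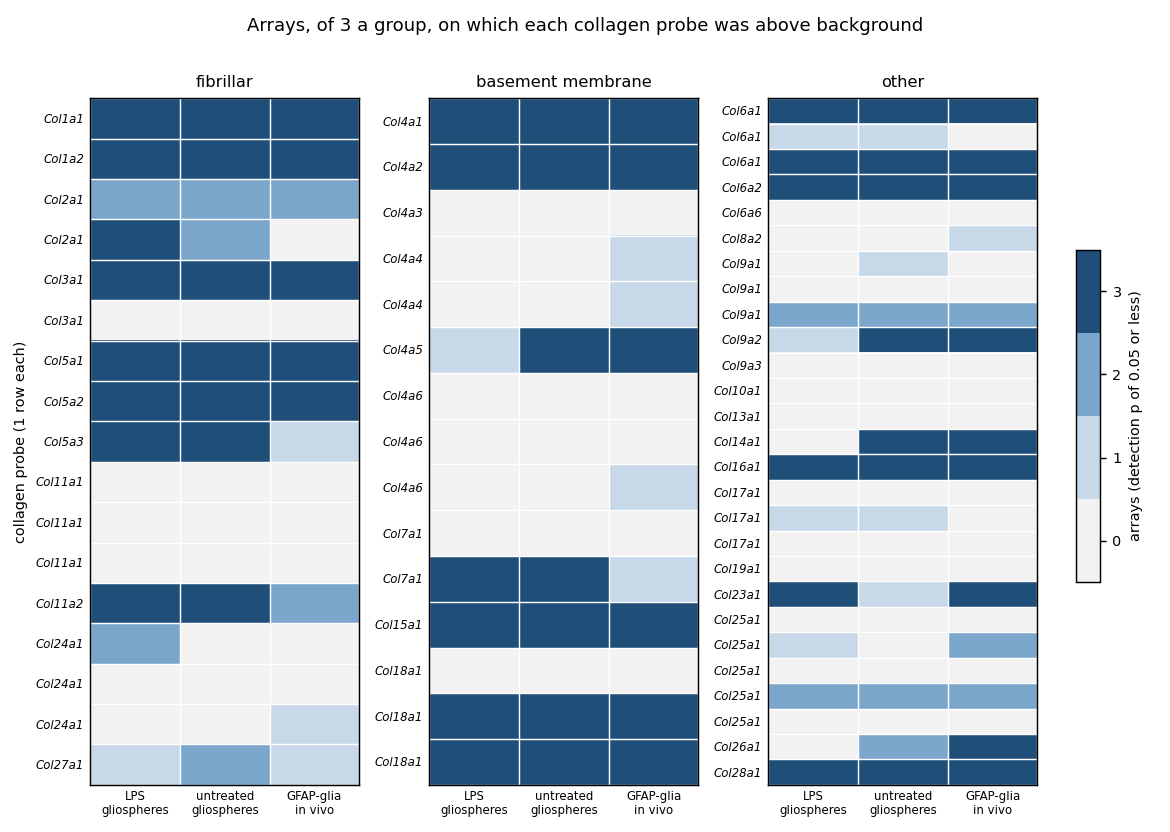
Number of arrays, of 3 in each group, on which each of the 59 collagen probes was above background (1 row a probe, several rows for genes with several probes, 1 panel a class). Main chains such as Col1a1, Col4a1 and Col6a1 were above background on 3 of 3 arrays in every group, whereas Col14a1 and Col26a1 were below it on the 3 LPS arrays and above it on the 3 in vivo arrays.

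Against untreated gliospheres, few collagen probes passed the test with LPS. By limma's test, not paired by litter and adjusted over all 14794 probes tested, 0 of the 38 collagen probes were higher in LPS gliospheres (0.662% of all probes tested were). The number lower was 1 (0.162% of all). At an unadjusted p under 0.05, 1 of the 38 collagen probes was higher and 4 were lower, against 590 and 540 of all 14794 probes tested. The share of lower probes was larger among the collagens and that of higher probes smaller, a difference that was not tested. The median log2 fold change of LPS over untreated gliospheres was 0.03 over all 59 collagen probes and 0.0049 over all 23977 probes with a symbol.

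The collagen called lower with LPS was Col28a1, a chain with von Willebrand factor A domains that in the mouse is known from peripheral nerves. Its normalized log2 signal was 7.82, 6.31 and 5.51 on the LPS arrays, against 9.76, 10.92 and 10.44 on the untreated arrays. Every LPS array was below every untreated array, and the probe was above background on all of them. The log2 fold change was -3.83 (SE, the standard error of the fit, 0.57, adjusted p = 0.0183), 14.2-fold lower in LPS gliospheres. On the in vivo arrays it stood at 9.06, 8.81 and 8.02, between the gliosphere groups. LPS gliospheres were lower than GFAP-glia in vivo by a log2 fold change of -2.09 (SE 0.57, adjusted p = 0.0242), and untreated gliospheres had a log2 fold change of 1.74 over them (adjusted p = 0.054). This last difference passed with quantile normalization (0.0266), without background correction (0.0172), with the authors' normalized values (0.012), in a fit of only those groups (0.0297), with the trended and robust fit (0.0298) and without LPS replicate 1 (0.0204) or 3 (0.0382). The call with LPS was lost without LPS replicate 2 (adjusted p = 0.0995) or 3 (0.0674) and without untreated replicate 2 (0.093) or 3 (0.0876), and in a fit of the gliosphere arrays alone with the litter as a block (0.103). With the authors' own normalized values it was kept, at a log2 fold change of -2.55 (adjusted p = 0.00556). Against GFAP-glia in vivo the LPS call was lost without LPS replicate 2 or 3 or without in vivo replicate 1 or 2 (adjusted p up to 0.0816), in a fit of only these groups (0.051) and with array weights (0.0673).

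The promoter of Col28a1 is shown because this was the collagen called lower with LPS in the main test. RefSeq (GRCm38.p6) places the window at chr6:8192568-8192867 on the minus strand, with 250 bases before the gene's start and 50 after it, and 30 of the 37 collagen genes have such a window. Capitals in all windows printed here mark TATAAA (the TATA box), CCAAT (the CCAAT box), GGGCGG (the GC box) or ACAAAG (a core that SOX factors bind) on either strand, and no marked motifs overlap.
Col28a1: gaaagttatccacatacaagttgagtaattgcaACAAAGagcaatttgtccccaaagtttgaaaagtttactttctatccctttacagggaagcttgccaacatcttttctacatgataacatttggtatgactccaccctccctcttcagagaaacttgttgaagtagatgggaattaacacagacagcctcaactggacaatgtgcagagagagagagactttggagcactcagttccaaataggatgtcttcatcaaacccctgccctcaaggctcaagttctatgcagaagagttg
It held 1 ACAAAG, a motif found in 18.7% of all 32851 windows, and none of the other motifs, and 41.7% of its bases were G or C against a median of 52.7% over all windows.

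No other collagen passed the main test. Col4a5, a basement membrane chain, had 4.35, 4.65 and 4.94 on the LPS arrays, above background on 1 of them, against 5.96, 6.10 and 6.59 on the untreated arrays, above background on 3 (log2 fold change -1.57, SE 0.32, adjusted p = 0.0788). It passed in a fit of only the gliosphere groups (adjusted p = 0.0376), with the litter as a block there (0.0475), with array weights (0.00849) and without in vivo replicate 1 (0.0424) or 3 (0.0418), and with the authors' values its log2 fold change was -0.37. Col26a1, a small collagen first described in testis and ovary, was below background on all LPS arrays at 2.88, 3.07 and 3.36, against 5.60, 5.73 and 4.69 on the untreated arrays, of which 2 were above background. The difference was at least 1.43-fold (adjusted p = 0.0743), the bound setting the untreated mean against the lowest signal above background on each LPS array, and it passed in a fit of only the gliosphere groups (0.0285), with array weights (0.00792) and without in vivo replicate 1 (0.0233) or 2 (0.0494). Col23a1, Col9a2, Col14a1 and Col24a1 had larger p-values. Col23a1, a transmembrane collagen, had 5.59, 6.00 and 7.71 in LPS gliospheres against 5.09, 3.33 and 4.64 in untreated gliospheres (adjusted p = 0.265). Col9a2 and Col14a1, both fibril-associated, had log2 fold changes of -1.70 (adjusted p = 0.265) and -2.09 (adjusted p = 0.707), with Col14a1 below background on all LPS arrays. Col24a1 was below background on all untreated arrays.

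For the abundant chains the intervals of the LPS effect were mostly narrower. Col4a1 and Col4a2, the main basement membrane chains, had log2 fold changes of 0.01 (95% interval -0.47 to 0.49) and 0.03 (-0.49 to 0.56), and both turned to slightly below 0 under quantile normalization and with the authors' values. Col3a1 had 0.27 (-0.53 to 1.06) and Col5a1 0.51 (-0.11 to 1.14). Col6a1 was higher on every LPS array than on every untreated array by its brightest probe, at 13.99, 14.30 and 14.12 against 13.25, 13.88 and 13.42, yet its log2 fold change of 0.62 (-0.03 to 1.28) did not pass (adjusted p = 0.694). For Col1a1, with 0.33 (-1.58 to 2.24), the interval was the widest of these. Markers of fibroblasts, the cells best known for fibrillar collagen, moved with LPS meanwhile: 2 of 5 rose and 0 fell (0.662% and 0.162% of all probes tested did). Those that rose were Dcn (decorin, a proteoglycan on collagen fibrils) by a log2 fold change of 2.80 (adjusted p = 0.0316, and 0.0563 with replicates blocked) and Lum (lumican, of the same family) by 2.08 (adjusted p = 0.0166). Both calls were lost without LPS replicate 2 or 3 or untreated replicate 2 or 3 (adjusted p up to 0.16), that of Dcn also without LPS replicate 1 or in vivo replicate 2 and that of Lum without untreated replicate 1. The summed signal of these 5 was 14858 to 17346 for LPS, 8626 to 11203 for untreated and 5337 to 9253 for in vivo arrays. Members went opposite ways: in untreated gliospheres 2 were higher and 1 lower than in vivo (13.1% and 11.9% of all probes tested). Fbln1 (log2 fold change 2.01, adjusted p = 0.00247) and Lum (1.39, adjusted p = 0.00942) were higher and Dcn was lower (-1.91, adjusted p = 0.018). That Dcn call was lost without untreated replicate 2 or 3 and in a fit of only these groups (adjusted p up to 0.0713). The part of these markers in the collagen values was not tested.

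**Figure D2:**
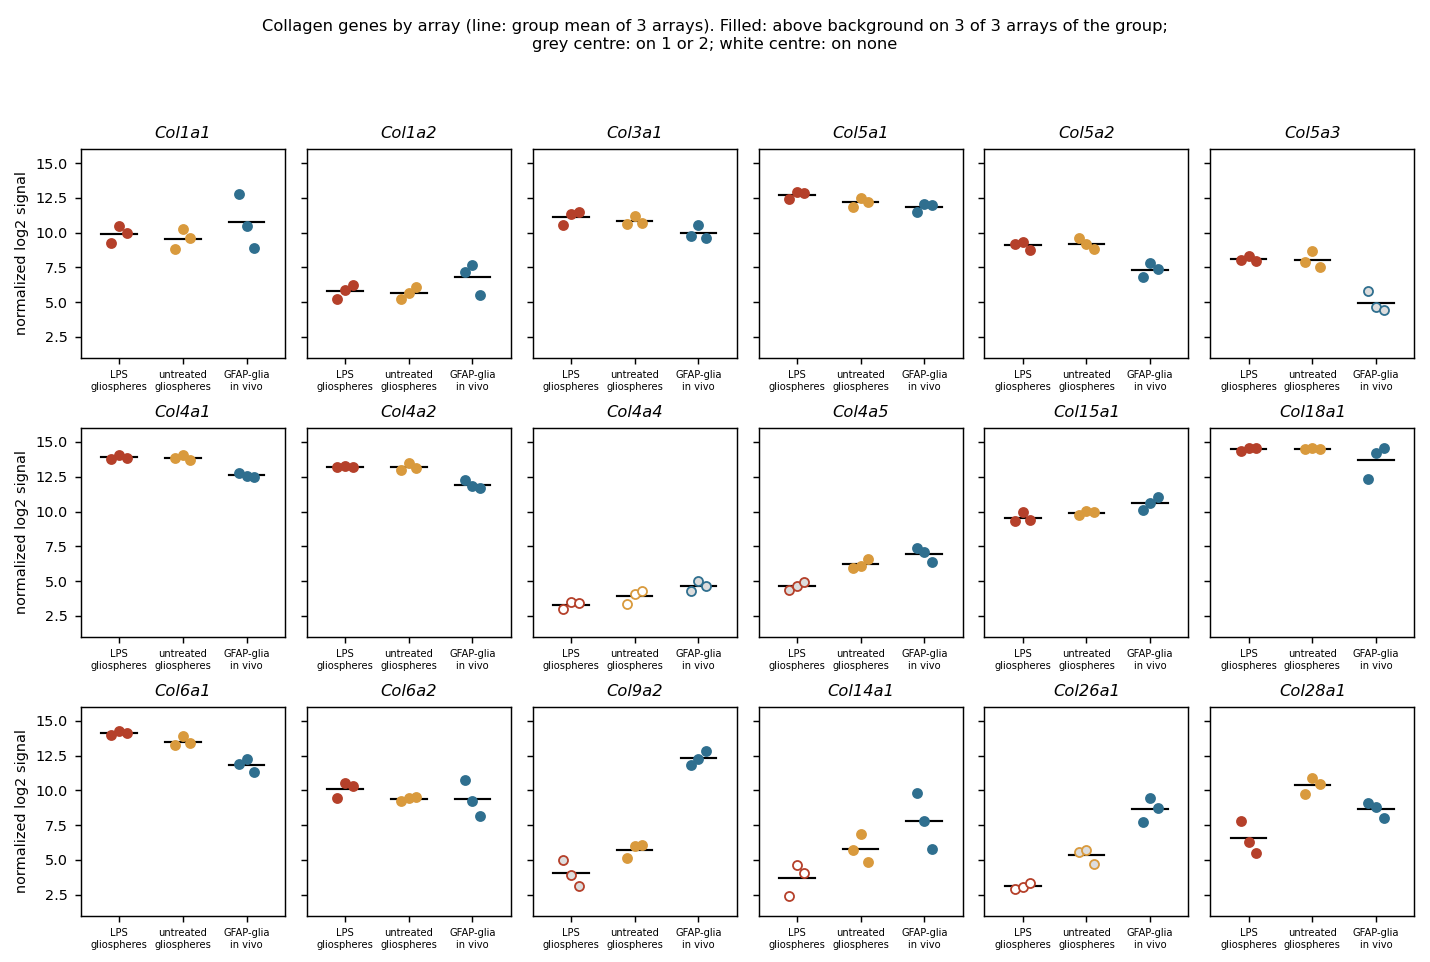
Normalized log2 signal (vertical axis) of the collagen genes named most, 1 probe each, on the 9 arrays. Points are arrays, lines the means of 3, with LPS gliospheres on the left, untreated gliospheres in the middle and GFAP-glia in vivo on the right, and the fill of the points gives on how many arrays of the group the probe was above background. Col28a1 lay at 5.51 to 7.82 on LPS arrays, below every other array, and Col9a2 at 11.81 to 12.87 on in vivo arrays, above every gliosphere array.

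Between gliospheres and GFAP-glia in vivo more collagen probes were called than with LPS, in both directions, and so were more of all probes. Of the 38 probes, 9 were higher in LPS gliospheres than in vivo (14.9% of all probes tested were) and 8 were lower (13.5% of all). Between untreated gliospheres and GFAP-glia in vivo 8 were higher (13.1% of all) and 2 lower (11.9% of all). Over all 59 probes the median log2 fold change was 0.08 for LPS gliospheres and 0.15 for untreated gliospheres, and over all probes with a symbol it was -0.02 for either. Both comparisons use the same in vivo arrays, so they are given side by side and not as support of each other, and a gene past the test in only 1 of them is not shown to differ between the gliosphere groups.

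**Figure D3:**
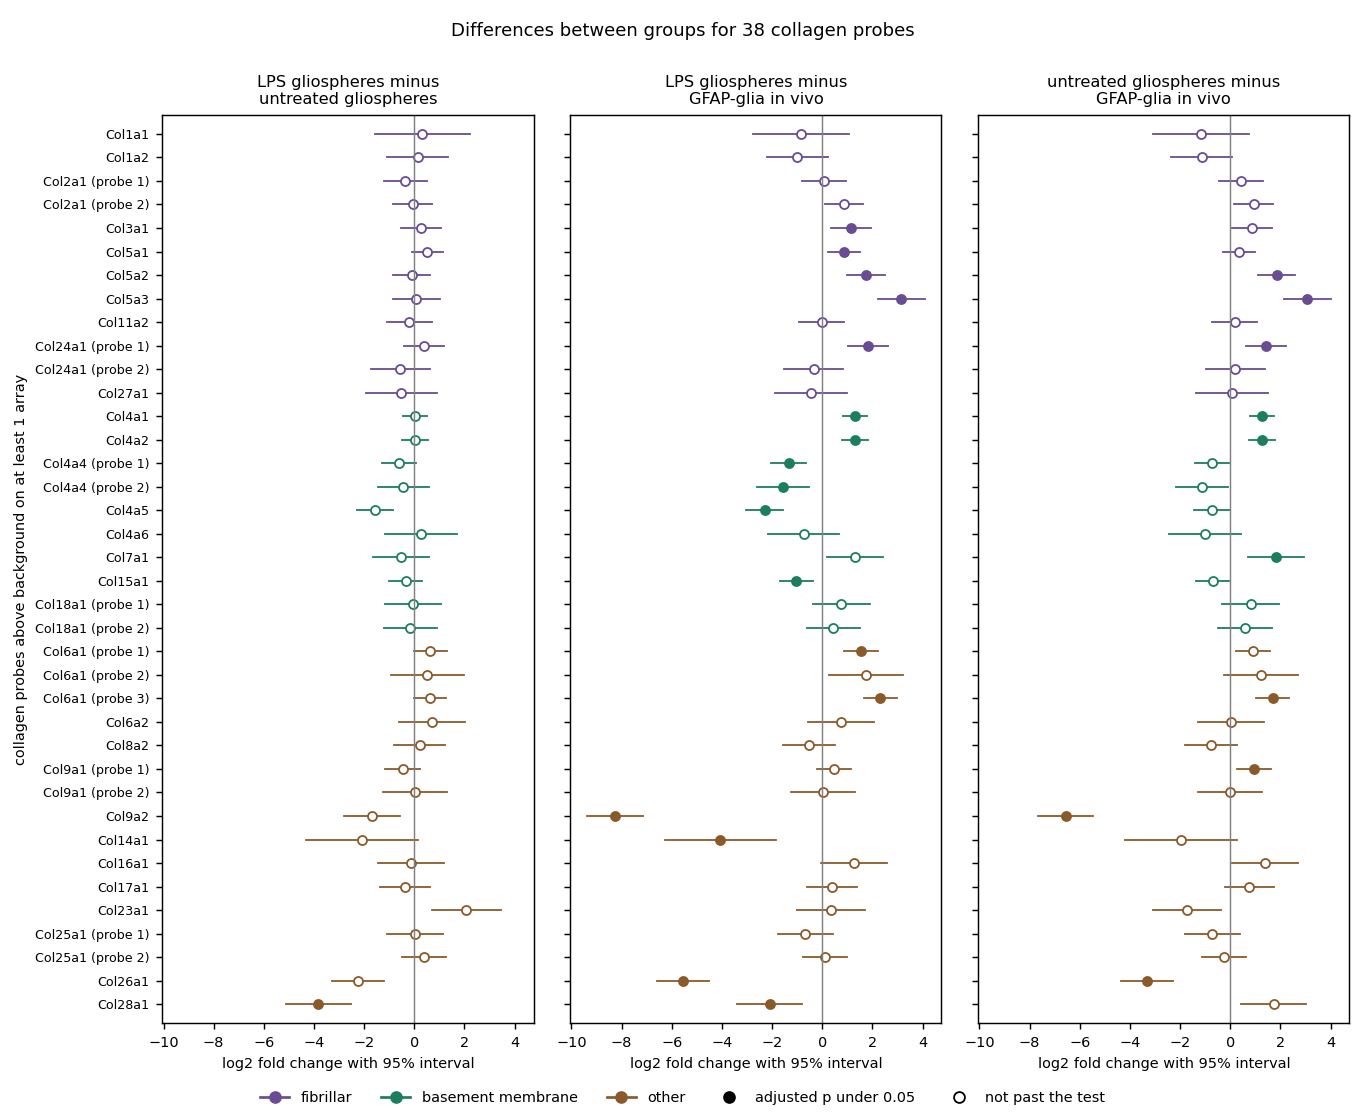
Log2 fold changes (horizontal axis) with 95% intervals for the 38 collagen probes above background on at least 1 array, coloured by class, for LPS over untreated gliospheres, LPS gliospheres over GFAP-glia in vivo and untreated gliospheres over GFAP-glia in vivo. Filled points are past the test. Col28a1, at -3.83, is the filled point of the left panel, and Col9a2 lies farthest from 0 in the others, at -8.26 and -6.56.

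Among the fibrillar collagens Col5a2 and Col5a3, chains of type V, which starts fibrils and sets their width, were higher in both gliosphere groups than in vivo. Col5a2 had 9.19, 9.30 and 8.74 on LPS arrays and 9.58, 9.20 and 8.79 on untreated arrays, against 6.81, 7.84 and 7.37 on in vivo arrays. The log2 fold changes were 1.74 for LPS gliospheres (SE 0.33, adjusted p = 0.00438) and 1.85 for untreated gliospheres (SE 0.33, adjusted p = 0.00388), and with the authors' values 1.11 and 1.21. Col5a3 had 8.01, 8.32 and 7.98 on LPS arrays and 7.87, 8.67 and 7.55 on untreated arrays, against 5.83, 4.62 and 4.44 on in vivo arrays, where it was above background on 1 of 3. No gliosphere array overlapped the in vivo arrays. The log2 fold changes were 3.14 (SE 0.41, adjusted p = 0.0006) and 3.07 (SE 0.41, adjusted p = 0.00088), but 1.25 and 1.24 with the authors' values. Col5a1 differed less, with a log2 fold change of 0.87 for LPS gliospheres (adjusted p = 0.0434) and 0.36 for untreated gliospheres (adjusted p = 0.377), and the LPS call was lost without any 1 of 7 arrays (each LPS array, untreated replicate 2 or 3, in vivo replicate 1 or 3; adjusted p up to 0.139), without the detection filter (0.0848), in a fit of only these groups (0.0801) and with array weights (0.0734).

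The chains of types I and III, the bulk collagens of connective tissue, gave a mixed picture. Col3a1 had 10.54, 11.35 and 11.47 on LPS arrays and 10.64, 11.22 and 10.69 on untreated arrays, against 9.77, 10.55 and 9.60 in vivo. It was higher in LPS gliospheres by a log2 fold change of 1.15 (SE 0.35, adjusted p = 0.0381), with 1 LPS array inside the range in vivo. The call was lost without LPS replicate 2 or 3, untreated replicate 1 or 3 or in vivo replicate 1 or 3 (adjusted p up to 0.132), without the detection filter (0.0633), in a fit of only these groups (0.0798) and with array weights (0.0762). For untreated gliospheres it was 0.88 (adjusted p = 0.101, and 0.0397 without in vivo replicate 2). Col1a1 had 9.23, 10.48 and 9.98 on LPS arrays and 8.85, 10.25 and 9.61 on untreated arrays, against 12.78, 10.49 and 8.92 in vivo, a spread that overlapped both gliosphere groups (adjusted p = 0.5 and 0.345). Col1a2, the partner chain, had 5.24, 5.87 and 6.24 on LPS arrays and 5.21, 5.67 and 6.09 on untreated arrays, against 7.16, 7.69 and 5.51 in vivo, which did not pass (adjusted p = 0.198 and 0.157), though without in vivo replicate 3 they did, at -1.64 (0.0164) and -1.77 (0.0137). The remaining fibrillar genes were dim. Col24a1, a minor fibrillar chain of bone, passed at 4.92, 4.85 and 5.14 on LPS arrays, above background on 2, against 3.14, 2.38 and 3.90 in vivo, above it on none, which is at least 1.08-fold higher (adjusted p = 0.00458), and its other probe above background, on 1 array, passed, as lower, only without in vivo replicate 2 (adjusted p = 0.0433). The untreated difference of Col24a1 also passed (adjusted p = 0.0166), with both groups below background, and was lost with the authors' values (0.0536), in a fit of only these groups (0.0516) and without untreated replicate 1 (0.0573) or 2 (0.0517). Col2a1, Col11a2 and Col27a1 did not pass in any comparison, except the brighter Col2a1 probe for untreated gliospheres without untreated replicate 2 (adjusted p = 0.0288).

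The basement membrane collagens split by chain. Col4a1 had 13.79, 14.05 and 13.82 on LPS arrays and 13.86, 14.06 and 13.70 on untreated arrays, against 12.76, 12.58 and 12.45 on in vivo arrays. Col4a2, which winds with Col4a1, had 13.17, 13.29 and 13.23 on LPS arrays and 13.02, 13.45 and 13.13 on untreated arrays, against 12.26, 11.86 and 11.69 in vivo. For both genes every gliosphere array lay above every in vivo array. The log2 fold changes of LPS gliospheres were 1.29 for Col4a1 (SE 0.21, adjusted p = 0.00208) and 1.30 for Col4a2 (SE 0.23, adjusted p = 0.00337), and those of untreated gliospheres 1.28 (SE 0.21, adjusted p = 0.00269) and 1.26 (SE 0.23, adjusted p = 0.00465). These 4 calls were kept without each array in turn and under each other setting tried, with log2 fold changes of 1.13 to 1.46.

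Col4a1 and Col4a2 are neighbours that are read in opposite directions from a common promoter, and their windows are shown because the genes moved side by side. In RefSeq (GRCm38.p6) Col4a1 is on the minus strand with its window at chr8:11312777-11313076 and Col4a2 on the plus strand at chr8:11312555-11312854. The starts lie 21 bases apart, and 78 bases belong to both windows.
Col4a1: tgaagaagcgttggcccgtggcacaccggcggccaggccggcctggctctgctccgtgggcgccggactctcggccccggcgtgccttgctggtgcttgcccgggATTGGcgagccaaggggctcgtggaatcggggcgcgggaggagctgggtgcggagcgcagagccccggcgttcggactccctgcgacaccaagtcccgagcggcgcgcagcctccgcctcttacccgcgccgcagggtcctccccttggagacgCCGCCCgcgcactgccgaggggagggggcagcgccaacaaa
Col4a2: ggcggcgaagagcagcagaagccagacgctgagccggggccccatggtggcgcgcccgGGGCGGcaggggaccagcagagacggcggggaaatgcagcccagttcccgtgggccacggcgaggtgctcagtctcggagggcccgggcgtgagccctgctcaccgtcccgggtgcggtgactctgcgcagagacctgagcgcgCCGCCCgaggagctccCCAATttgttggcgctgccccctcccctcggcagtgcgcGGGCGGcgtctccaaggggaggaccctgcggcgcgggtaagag
G and C made up 74.0% and 73.7% of the bases. The Col4a1 window held 1 CCAAT and 1 GGGCGG, and the Col4a2 window held 1 CCAAT and 3 GGGCGG, counting both strands, while neither held TATAAA or ACAAAG. The GGGCGG of the Col4a1 window lies in the shared bases and is 1 of the 3 of Col4a2, read from the other strand. Of all windows 37.4% hold CCAAT, 35.7% GGGCGG and 13.6% TATAAA. Of the 33 windows of collagen genes these motifs were in 12, 20 and 5.

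The rarer type IV chains went the other way or were dim. Col4a5 stood at 7.41, 7.07 and 6.35 in vivo, above every LPS array as given before, and LPS gliospheres were lower by a log2 fold change of -2.30 (SE 0.32, adjusted p = 0.000893), or -0.67 with the authors' values. Untreated gliospheres overlapped the in vivo arrays (log2 fold change -0.73, adjusted p = 0.133, and 0.0407 without in vivo replicate 3). Col4a4 was above background on 1 in vivo array and no gliosphere array by either probe tested. Its probes were past the test for LPS gliospheres against GFAP-glia in vivo (adjusted p = 0.0108 and 0.0304), but no fold can be given since the bound lay below 1, and neither passed with quantile normalization (0.0685 and 0.0821) or the authors' values (0.127 and 0.113). The dimmer of these probes also lost its call without any LPS array or without in vivo replicate 2 or 3 (adjusted p up to 0.098). For untreated gliospheres neither Col4a4 probe passed (adjusted p = 0.113 and 0.101). The dimmer one did without in vivo replicate 1 (0.0293) and with replicates blocked (0.0366), which pairs in vivo arrays with litters by number only. Col4a6 was above background on 1 in vivo array and did not pass.

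Types VII, XV and XVIII lie in or beneath the basement membrane. Col7a1, of the anchoring fibrils, had 5.38, 6.25 and 6.73 in untreated gliospheres, against 3.96, 3.58 and 5.33 in vivo, above background on 1 of 3. The log2 fold change was 1.82 (SE 0.50, adjusted p = 0.0261), 1.15 with arrays below background set to the lowest signal above it and 0.43 with the authors' values, and the call was lost without untreated replicate 2 or 3 or in vivo replicate 1 or 2 (adjusted p up to 0.0943) and in a fit of only these groups (0.0616). In LPS gliospheres Col7a1 had 5.82, 5.80 and 5.18 (log2 fold change 1.31, adjusted p = 0.0797, and 0.0144 without in vivo replicate 3). Col15a1, which ties the membrane to the fibrils beneath it, was lower in LPS gliospheres at 9.33, 9.95 and 9.40, against 10.13, 10.64 and 11.04 in vivo (log2 fold change -1.04, SE 0.29, adjusted p = 0.0266). This call was lost without LPS replicate 1 or 3 or in vivo replicate 2 or 3 (adjusted p up to 0.0959), without the detection filter (0.0519) and in a fit of only these groups (0.0711). Untreated gliospheres had 9.72, 10.05 and 9.94 (log2 fold change -0.70, adjusted p = 0.113), which passed with the authors' values (0.0297), quantile normalization (0.0443) and array weights (0.0461) and without in vivo replicate 1 (0.0247). Col18a1, the precursor of endostatin, was among the bright probes at 14.31, 14.55 and 14.57 on LPS arrays and 14.47, 14.60 and 14.49 on untreated arrays, against 12.33, 14.24 and 14.56 in vivo. It did not pass (adjusted p = 0.287 and 0.265), except for untreated gliospheres with quantile normalization (0.0467) and with the authors' values (0.0423). Its other bright probe had 11.50, 9.89 and 9.48 in vivo, so that in vivo replicate 1 was the lowest by one probe and the highest by the other, and without that array the other probe was higher in both gliosphere groups (adjusted p = 0.0132 with LPS and 0.00865 without).

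Type VI collagen was represented by the chains Col6a1 and Col6a2, which share a filament. By its brightest probe Col6a1 had 11.91, 12.24 and 11.32 in vivo, below every gliosphere array. The log2 fold changes were 2.31 for LPS gliospheres (SE 0.29, adjusted p = 0.000459) and 1.69 for untreated gliospheres (SE 0.29, adjusted p = 0.00326), 4.97-fold and 3.22-fold higher, and they passed under every setting tried and without each array in turn. A further Col6a1 probe had 12.91, 13.19 and 13.17 on LPS arrays and 12.13, 12.72 and 12.50 on untreated arrays, against 12.11, 11.35 and 11.17 in vivo. It was higher in LPS gliospheres (log2 fold change 1.55, SE 0.29, adjusted p = 0.0044), and for untreated gliospheres it lay just outside the threshold (0.91, adjusted p = 0.0516), passing without background correction (0.0339), with the trended and robust fit (0.0232), with array weights (0.00934) and without in vivo replicate 1 (0.00586). The third Col6a1 probe was above background on 2 of 9 arrays and did not pass, except for LPS gliospheres without LPS replicate 2 (adjusted p = 0.0469) or in vivo replicate 2 (0.0429). Col6a2 had 9.42, 10.54 and 10.32 on LPS arrays and 9.20, 9.46 and 9.52 on untreated arrays, against 10.71, 9.23 and 8.13 in vivo, which overlapped both (adjusted p = 0.38 and 0.972). Without in vivo replicate 1 the Col6a2 difference of LPS gliospheres passed, at a log2 fold change of 1.41 (adjusted p = 0.0335).

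The fibril-associated collagens held the largest difference among the 38 probes. Col9a2, a chain of type IX that coats type II fibrils in cartilage, had 5.03, 3.95 and 3.16 on LPS arrays, above background on 1 of 3, and 5.17, 6.03 and 6.04 on untreated arrays, above background on 3 of 3, against 11.81, 12.25 and 12.87 on in vivo arrays. Every gliosphere array lay below every in vivo array. The log2 fold changes were -8.26 for LPS gliospheres (SE 0.49, adjusted p = 7.58e-06) and -6.56 for untreated gliospheres (SE 0.49, adjusted p = 3.51e-05). The untreated difference is 94.6-fold lower, and for LPS, with the 2 arrays below background set to the lowest signal above it, the fold is 170.4. With the authors' values they were -5.07 and -4.72. Both calls were kept under every setting tried and without each array in turn. Among the other chains of type IX, Col9a3 was below background on every array, and the brightest Col9a1 probe had log2 fold changes of 0.03 and -0.01 (adjusted p = 0.975 and 0.996). Another Col9a1 probe, above background on 1 untreated array only, passed for untreated gliospheres at an adjusted p of 0.04997, in none of 8 other settings and in 1 of 9 fits that left out an array, and no fold can be given for it.

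The Col9a2 window is given for the size of its difference. It lies at chr4:121039316-121039615 on the plus strand.
Col9a2: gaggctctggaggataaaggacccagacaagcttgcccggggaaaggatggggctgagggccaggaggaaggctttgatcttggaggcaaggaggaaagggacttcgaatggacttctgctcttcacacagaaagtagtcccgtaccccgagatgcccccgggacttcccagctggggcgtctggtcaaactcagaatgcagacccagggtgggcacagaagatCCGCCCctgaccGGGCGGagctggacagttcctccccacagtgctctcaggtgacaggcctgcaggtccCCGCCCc
It held 3 GGGCGG counting both strands and none of the other motifs, with 61.7% G and C.

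Col14a1, which binds fibrils of type I, followed the same order of groups as Col9a2. It was below background on all LPS arrays at 2.40, 4.67 and 4.08, and had 5.72, 6.84 and 4.85 on untreated arrays, against 9.79, 7.78 and 5.77 in vivo. LPS gliospheres were at least 7.76-fold lower than GFAP-glia in vivo (adjusted p = 0.0143), a call lost without LPS replicate 1 (0.0533), and with the authors' values the log2 fold change was -1.53. Untreated gliospheres overlapped the in vivo arrays (log2 fold change -1.97, adjusted p = 0.176, and 0.0399 without in vivo replicate 3). Col16a1, bright in gliospheres at 12.65, 12.95 and 12.43 with LPS and 12.70, 13.19 and 12.54 without, had 9.83, 12.01 and 12.39 in vivo. It did not pass (log2 fold change 1.26, adjusted p = 0.139, and 1.40, adjusted p = 0.112, or 0.0465 without in vivo replicate 3). Col19a1 was not above background.

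Among the remaining types Col26a1 differed most. It had 7.70, 9.49 and 8.76 on in vivo arrays, against which LPS gliospheres were at least 14.2-fold lower (adjusted p = 4.28e-05) and untreated gliospheres lower by a log2 fold change of -3.31 (SE 0.45, adjusted p = 0.000977). With the authors' values the log2 fold changes were -1.97 and -1.56, and both calls were kept under every setting and without each array in turn. The transmembrane collagens Col17a1, Col23a1 and Col25a1 and the network-forming Col8a2 did not pass against GFAP-glia in vivo. Of these Col23a1 came nearest, at 6.30, 5.65 and 6.32 in vivo and above background on 1 of 3 untreated arrays (log2 fold change -1.74, adjusted p = 0.0642). It passed without LPS replicate 3 (0.0303) and with replicates blocked (0.0465), a block that pairs in vivo arrays with litters by number only.

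The in vivo arrays were the most spread. Over the 15 collagen probes above background on all arrays the median standard deviation was 0.26 between LPS arrays, 0.33 between untreated arrays and 0.52 between in vivo arrays. Over the 9291 such probes of all genes it was 0.16, 0.19 and 0.46. In vivo replicate 1 was the highest of its group for Col1a1, Col14a1 and Col6a2 and the lowest for Col16a1 and the brightest Col18a1 probe. It also stood apart over all probes tested. Its fitted array weight was 0.114, against 0.862 and 0.734 for in vivo replicates 2 and 3. Without it 4661 in place of 3704 of all probes were called for untreated gliospheres against in vivo, and 5251 in place of 4200 for LPS gliospheres. The smooth muscle gene Myh11 stood at 11.48, 9.53 and 8.42 and the macrophage gene Adgre1 at 10.02, 10.40 and 9.77 on the in vivo arrays, and Dcn at 12.88, 12.59 and 11.42. Smooth muscle signal was thus also highest on in vivo replicate 1, and its part in these collagen values was not tested.

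Of 20 collagen synthesis enzymes and chaperones tested, 10 were higher in LPS gliospheres than in vivo and 0 lower, and 9 were higher in untreated gliospheres and 0 lower, beside 14.9% and 13.1% higher among all probes tested (at an unadjusted p under 0.05, 14 and 13 higher and 0 lower in either). P4ha1, the catalytic chain of a prolyl 4-hydroxylase that the helix needs to be stable, had 8.54, 9.04 and 8.48 on LPS arrays and 8.42, 8.72 and 8.66 on untreated arrays, against 2.54, 5.86 and 6.32 in vivo, where replicate 1 was below background. Its log2 fold changes were 3.78 (adjusted p = 0.00843) and 3.70 (adjusted p = 0.0108), 2.60 and 2.51 without in vivo replicate 1, 4.49 and 4.40 without in vivo replicate 3, and 1.57 and 1.52 with the authors' values, all past the test. Serpinh1, the collagen chaperone HSP47, had 1.84 (adjusted p = 0.00779) and 1.78 (adjusted p = 0.0106), and the lysyl hydroxylase Plod1 1.54 (adjusted p = 0.00106) and 1.62 (adjusted p = 0.000983). With LPS against no LPS 1 of 20 rose and 0 fell, beside 0.662% and 0.162% of all probes tested. It was P4ha2, a sister of P4ha1, at 9.88, 9.86 and 9.60 on LPS arrays against 7.99, 7.81 and 8.09 on untreated arrays (log2 fold change 1.81, SE 0.29, adjusted p = 0.023). This call was lost with replicates blocked over all 9 arrays (0.0619), which also pairs the in vivo arrays by number. It was lost as well without any 1 of the 6 gliosphere arrays (0.0829 to 0.128).

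Of 6 processing and cross-linking genes tested 0 passed with LPS (limma; 2 higher and 0 lower at an unadjusted p under 0.05), while Lox, which cross-links fibrils, was higher than in vivo in LPS gliospheres (log2 fold change 2.44, adjusted p = 0.00178) and untreated gliospheres (1.59, adjusted p = 0.0167, and 0.0678 without untreated replicate 2), and Bmp1, which trims procollagen, in LPS gliospheres (1.65, adjusted p = 0.00162). Of 6 receptor genes tested 0 passed with LPS (limma; 0 at an unadjusted p under 0.05). Against GFAP-glia in vivo 3 were higher and 1 lower in either gliosphere group. Among all probes tested 14.9% were higher and 13.5% lower in LPS gliospheres, and 13.1% and 11.9% in untreated gliospheres. The integrin chain Itga1 had 7.81, 7.53 and 7.06 on LPS arrays and 7.81, 8.74 and 8.38 on untreated arrays, against 4.82, 4.39 and 2.97 in vivo, above background on 1 of 3. It passed for LPS (adjusted p = 0.000817) and untreated gliospheres (adjusted p = 0.000308), with log2 fold changes of 3.41 and 4.25, or 2.60 and 3.44 with the arrays below background set to the lowest signal above it, and 1.05 and 1.59 with the authors' values. Its partner Itgb1 and the receptor kinase Ddr1 were higher too, Ddr1 in untreated gliospheres not without untreated replicate 1 or 2 or in vivo replicate 3 (adjusted p up to 0.084) or in a fit of only these groups (0.0603). Itga11 was lower (-2.24, adjusted p = 0.0221, and -2.46, adjusted p = 0.0167), calls lost without LPS replicate 1 or in vivo replicate 2 or 3 (adjusted p up to 0.0694) and without untreated replicate 1 (0.0593). Of 7 proteases that cut collagen or its fragments 4 rose with LPS and 0 fell, beside 0.662% higher and 0.162% lower among all probes tested. The paper's enrichment on these same arrays already lists these 4 under the breakdown of collagen. The list was made with earlier results known, so the count is no independent support. The stromelysin gene Mmp3 differed by at least 4.92-fold (adjusted p = 0.00361), having 6.61, 6.77 and 7.79 on LPS arrays and no untreated array above background. The log2 fold changes were 3.08 for Mmp9 (adjusted p = 0.00261), 3.18 for Mmp10 (adjusted p = 0.0083) and 3.93 for the collagenase Mmp13 (adjusted p = 0.0422), the last above background on 1 untreated array. The Mmp13 call was lost without any 1 of the LPS arrays, untreated replicate 2 or 3 or in vivo replicate 1 or 2 (adjusted p up to 0.191) and in a fit of only the gliosphere groups (0.0714). With the litter as a block in the gliosphere arrays alone Mmp3 and Mmp13 (adjusted p of 0.0595 for either) did not pass, nor did Dcn (0.0824) and Lum (0.0618). Against GFAP-glia in vivo 6 of these 7 were higher in LPS gliospheres (14.9% of all probes tested) and 3 in untreated gliospheres (13.1% of all). Mmp9 was at least 79.5-fold and at least 9.39-fold higher (adjusted p = 3.04e-06 and 4.97e-05).

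**Figure D4:**
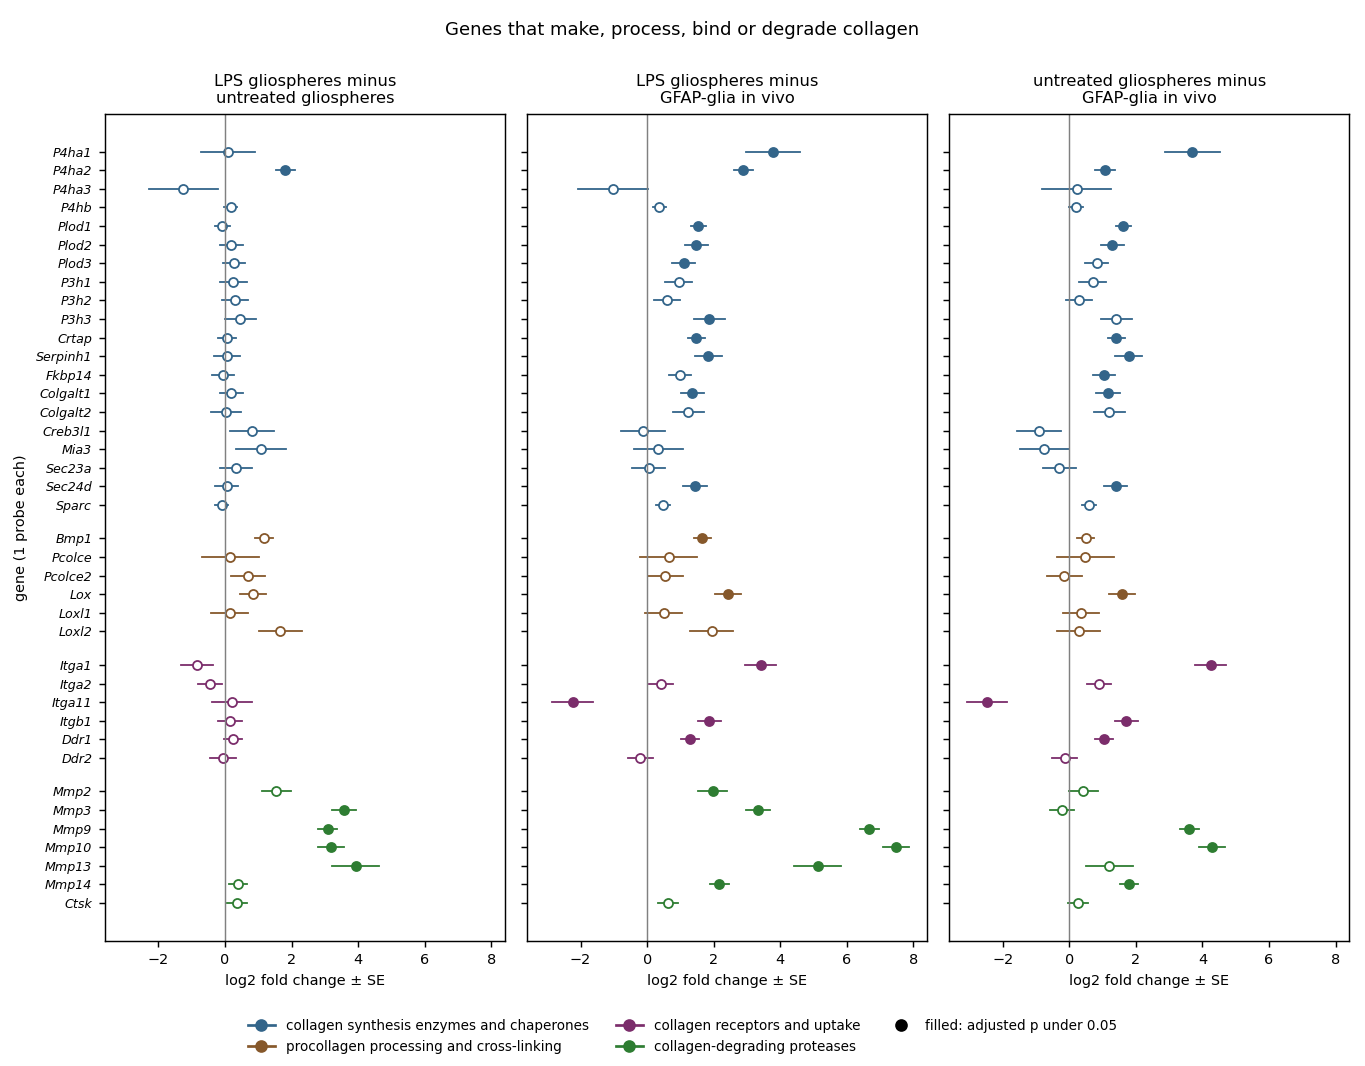
Log2 fold changes with SEs (horizontal axis) of genes that make, process, bind or degrade collagen, 1 probe a gene, in the same 3 comparisons, with filled points past the test. In the left panel P4ha2, Mmp3, Mmp9, Mmp10 and Mmp13 are filled, and in the other panels most synthesis genes lie right of 0 while Itga11 lies left of it at -2.24 and -2.46.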

How the data were processed

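RNA of 9 samples was hybridised to Illumina MouseRef-8 bead arrays, 3 for each group. The authors deposited raw signal intensity and a detection p-value for each probe, exported from GenomeStudio, and a table of normalized intensity on a linear scale, whose columns all hold the same set of values. Between 95.7 and 98.2% of the raw values of an array had lost their decimal point, as had most normalized values. Both were restored together, by taking for each probe the pair of readings nearest to a rising curve of normalized on raw signal, with the detection p-value and the values shared by the normalized columns as further constraints, and 1 of 25697 probes could not be settled. The authors' normalized values, used as an alternative, are thus not independent of the signals tested. The restoration and the test were checked on simulated data.

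Signals were corrected by normexp with an offset of 16 and normalized by variance stabilization with code written after the published method, in place of the package. Probes with a symbol and a detection p-value of 0.05 or less on at least 1 array were tested (14794 probes) in limma 3.58.1 (R 4.3.3) with group means over all 9 arrays, and p-values were adjusted by Benjamini-Hochberg with a threshold of 0.05. This fit did not use the pairing of LPS and untreated gliospheres by litter, since the paper's methods name no block. Fits with a block are given as alternatives. Where replicates are blocked, the number is a block over all 9 arrays and also ties in vivo arrays to litters, which the labels do not. Where the litter is the block, only the gliosphere arrays are fitted. The Col28a1 call with LPS was kept in the first of these (adjusted p = 0.0403) and lost in the second (0.103). Restoration and figures used Python 3.11.15. For a probe below background on every array of a group, an "at least" fold sets the other group's mean against the mean of, for each array, the higher of the lowest signal above background and the probe's own.

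Replicate numbers tie LPS and untreated gliospheres to 1 litter, as stated in the series' design, and the deviations of such pairs from their group means correlated at 0.16, 0.086 and 0.169. For LPS and untreated arrays of different litters the correlations were all negative, from -0.139 to -0.023. In vivo numbers are not tied to them. With 3 arrays a group their number limits the precision. The p-values rest on the spread between arrays within groups, pooled over all 3 groups. Those of LPS against untreated gliospheres therefore also carry the wider spread of the in vivo arrays. For that comparison 122 of all probes tested were called, and 210 in a fit of only the gliosphere groups. Named with values were collagen genes past the test in any comparison, the main fibrillar, basement membrane and type VI chains and Col28a1 whatever their values, by the probe with the highest mean (other probes where they differed in call or direction), and up to 4 genes of each pathway list with the largest change past the test. Col16a1 and Col23a1, and the marker genes given by array, were added after their values were seen. The members and the gene lists were chosen with earlier results of these data known.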

Additional observations from a re-analysis of the deposited data

How the results depend on the processing

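In the main test 1 collagen probe was called lower with LPS, and 3 were called in a fit of only the gliosphere groups and 3 with array weights. Leaving out arrays gave 0 to 3: 0 without LPS replicate 2 or 3 or untreated replicate 2 or 3, and 3 without in vivo replicate 1. Against GFAP-glia in vivo 12 to 17 probes were called for LPS gliospheres and 8 to 13 for untreated gliospheres over all settings. Of 28 calls the authors' values kept 24 and quantile normalization 25. With the replicate block 27 were kept, the dimmer Col9a1 probe was lost, and the dimmer Col4a4 probe and Col23a1 were gained for untreated gliospheres against GFAP-glia in vivo; it changed no other collagen call, and among the pathway and fibroblast genes named it ended those of P4ha2 and Dcn with LPS. In the gliosphere arrays alone the block gave 1 call, Col4a5 in place of Col28a1. Signs turned in 38 cases, none past the test before or after. For LPS against untreated gliospheres the log2 fold changes of Col4a1 and Col4a2 were -0.0912 and -0.0413 with quantile normalization and -0.0883 and -0.0408 with the authors' values, and that of Col9a1 was -0.1608 with array weights. Leaving out arrays gave -0.0327 to 0.6652 for Col1a1, -0.1021 to 0.3997 for Col1a2, -0.3115 to 0.0849 for Col5a2, -0.1686 to 0.3956 for Col5a3, -0.0747 to 0.1043 for Col4a1, -0.0567 to 0.1619 for Col4a2, -0.0875 to 0.0379 for Col18a1 and -0.3896 to 0.7544 for Col9a1. For untreated gliospheres against GFAP-glia in vivo Col6a2 was -0.1128 with quantile normalization, -0.0096 without background correction and -0.1447 with the authors' values (-0.578 to 0.7151 leaving out arrays), and Col9a1 was 0.0554 with quantile normalization and 0.0167 with the authors' values (-0.1675 to 0.3082). For LPS gliospheres against GFAP-glia in vivo Col9a1 was -0.0206 without background correction and -0.3138 with array weights (-0.3955 to 0.7485), and Col1a1 ran -1.7407 to 0.1883 leaving out arrays. The cause of these changes was not tested. Dim probes had smaller fold changes with the authors' values. At a detection p-value of 0.01 in place of 0.05, 30 in place of 21 collagen probes were below background everywhere. The alternatives for pathway and fibroblast genes and for collagen probes outside the naming rule were chosen after seeing the data.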
